A study of Arabidopsis thaliana with 12 samples.

Results

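The 150 Arabidopsis thaliana genes described here gave the largest share of their sequencing reads from within annotated introns. They were taken from 6041 genes that had at least 100 gene reads in each of 12 libraries, out of 28642 genes listed, by ranking the mean over the libraries of intron reads divided by gene reads. The genes were thus chosen by that measured share, so its height is given as a description. The ranking used no contrast between genotypes, but a gene that is high in some genotypes only can enter through them. Differences in share between genotypes, and counts of members that show them, may be partly shaped by this. The libraries came from fully expanded rosette leaves of 4 genotypes with 3 libraries each: the sapx tapx pgr5 triple mutant, the pgr5 mutant, the sapx tapx double mutant and wild type. All 4 genotypes had spent 18 days in weak light (40 to 60 µmol photons/m2/s) and then 90 min in strong light (1500 µmol photons/m2/s), so no unexposed leaf enters a comparison. SAPX and TAPX encode the stromal and the thylakoid ascorbate peroxidase, which remove hydrogen peroxide in the chloroplast, and PGR5 takes part in cyclic electron transport, which returns electrons from photosystem I to the plastoquinone pool. The labels name no allele or accession for any line and do not say whether the libraries of a genotype came from separate plants, so a p-value measures the spread between these libraries, which may be technical.

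Introns are removed from most plant transcripts soon after they are made, and few reads of a leaf RNA library therefore fall in introns. Intron reads remain where an intron is kept in the mature RNA, where the RNA has not yet been spliced, or where a second transcript lies inside the intron. Intron retention is the most common form of alternative splicing in plants, and it is well known for genes of RNA-binding proteins and of the circadian clock.

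The libraries held 4985520 to 6915101 gene reads, of which 1.09 to 1.57% were intron reads. SAPX stood at 15.7 to 27.7 CPM (exon reads scaled to the library total) and TAPX at 23.7 to 26.4 CPM in sapx tapx pgr5, and at 17 to 25.0 and 17.4 to 18.5 CPM in sapx tapx, against 205 to 249 and 161 to 186 CPM in wild type. PGR5 had 203 to 272 CPM in sapx tapx pgr5 and 234 to 247 CPM in pgr5, against 249 to 253 CPM in wild type, so its level does not check the pgr5 label. The 5 leaf mesophyll markers summed to 54609 to 65314 CPM over the 12 libraries. The 3 root markers summed to 17.3 to 23.2 CPM in sapx tapx pgr5 and 20.8 to 23.2 CPM in pgr5. They summed to 15.6 to 18.1 CPM in sapx tapx and 14.2 to 16.3 CPM in wild type. In each genotype 1 of the 3 root markers was at 0 in at least 1 library. A list of 14 rapid stress and touch genes set single libraries apart within a genotype, at a summed 1731 CPM in wild type replicate 2 against 257 and 264 CPM in the other wild type libraries.

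The mean intron share of the 150 genes ranged from 8.74 to 100%, with a median of 12.2%, and 29 of them exceeded 20%. Over all 6041 genes the median was 0.782% and the 90th percentile 3.67%, and 471 genes had no intron read. The lowest members were AT1G77800 at 8.88%, AT1G70620 at 8.78%, AT5G02940 at 8.77%, AT3G02300 at 8.74% and CID7 at 8.74%. Just outside stood AT1G35510 at 8.67%, AT1G07440 at 8.66%, AT5G40500 and EXPA5 at 8.54% each and AT1G22430 at 8.51%. The limit of 150 therefore falls on a slope with no gap. In each library the 150 genes supplied 21.2 to 26.7% of all intron reads.

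**Figure D1:**
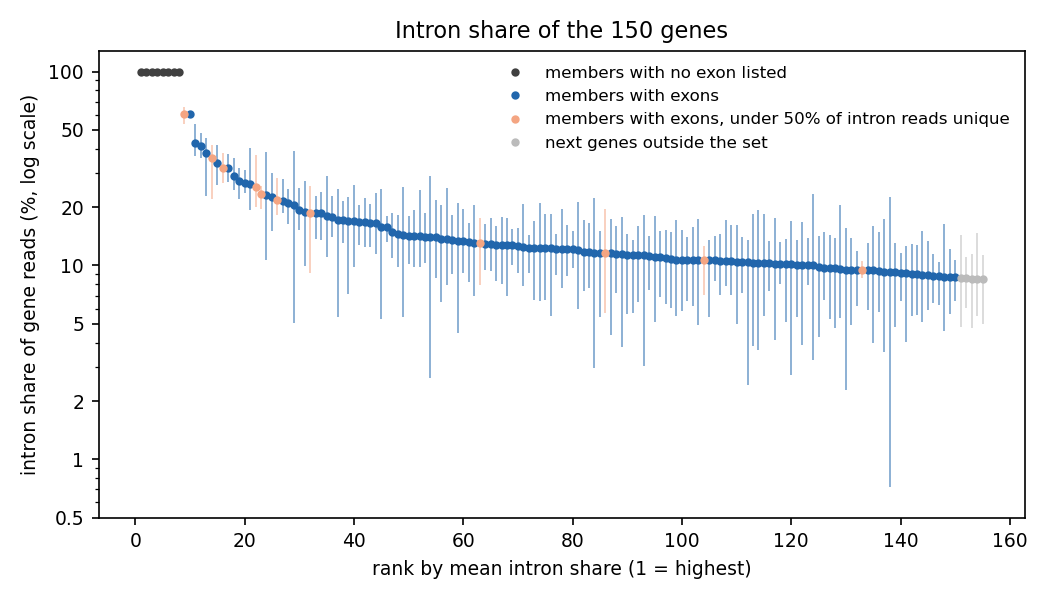
Mean intron share of gene reads (%, log scale) of the 150 genes by rank, followed by the 5 genes just outside, with a line from the lowest to the highest of the 12 libraries. The 8 genes without a listed exon lie at 100%, LpxC3 follows at 60.5%, and the curve ends at 8.74% at rank 150.

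The top of the ranking is set by the annotation. The 8 genes at 100% have no exon in the deposited tables, so each of their reads was counted as an intron read and nothing follows about splicing. All 8 listed genes without an exon that reached 100 reads in every library are among them, out of 1314 such genes listed. RefSeq annotates AT1G69252, GUT15 (AT2G18440), AT3G06125, AT4G13495 and AT4G36648 as noncoding RNAs and AT3G41768 as ribosomal RNA, of whose reads only 15.8% were unique. The remaining 2, ATMG00020 and ATMG01390, lie on the mitochondrial genome and were not matched in the reference. They supplied 10.5 to 17.1% of all intron reads, most of them in ATMG01390 and AT3G41768.

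Their intron share cannot vary, but their level can. AT4G13495 (chromosome 4, 7842967 to 7846774, plus strand) fell in both genotypes with the pgr5 mutation. In gene reads scaled to the library total, as CPM, it had 72.1, 47.8 and 64.8 in sapx tapx pgr5, 64.8, 76.0 and 60.8 in pgr5, 122, 113 and 139 in sapx tapx, and 99.7, 156 and 110 in wild type. The libraries of both pgr5 genotypes all lay below those of sapx tapx and wild type. On the log2 scale it changed by -0.90 ± 0.18 (SE) in sapx tapx pgr5 against wild type (edgeR quasi-likelihood test on gene reads, Benjamini-Hochberg adjusted p = 0.00783). The change in pgr5 against wild type was -0.83 ± 0.18 (adjusted p = 0.0244, same edgeR fit). In sapx tapx pgr5 against sapx tapx it was -1.0 ± 0.18 (edgeR adjusted p = 0.0047). AT4G13493 and AT4G13494 overlap this gene on the same strand.

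ATMG00020 rose in sapx tapx pgr5 against wild type. It had 140, 131 and 108 CPM of gene reads in sapx tapx pgr5, against 75.8, 65.3 and 53.9 in wild type, a log2 change of 1.04 ± 0.18 (edgeR on gene reads, adjusted p = 0.00349). Its levels were 94.5, 74.0 and 98.6 in pgr5 and 115, 126 and 89.4 in sapx tapx, and neither comparison with wild type passed. In this fit on gene reads 9.88% of 16648 genes were called for sapx tapx pgr5 against wild type, 3.72% for pgr5 against wild type and 7.86% for sapx tapx pgr5 against sapx tapx. GUT15, a noncoding RNA, had 97.0 to 173 CPM of gene reads in sapx tapx pgr5, 135 to 159 in pgr5, 81.1 to 111 in sapx tapx and 84.2 to 130 in wild type, and passed in no comparison. No other call was made among the 8, in fits that called 0.0481% of genes for sapx tapx against wild type, 1.32% for sapx tapx pgr5 against pgr5 and 0.138% for the interaction. In bulk leaves, fewer cells of a type and less RNA per cell cannot be told apart.

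Among the 142 members with exons, LpxC3 and AT1G73885 had the highest shares. AT1G73885, an AT-rich interactive domain protein on chromosome 1 (27786864 to 27787708, plus strand), had 59.3, 60.2 and 59.6% in sapx tapx pgr5, 62.3, 61.4 and 61.4% in pgr5, 61.5, 58.5 and 57.9% in sapx tapx, and 60.7, 62.6 and 60.6% in wild type. These 12 values span 4.75 percentage points, and the pgr5 libraries lie just above those of sapx tapx pgr5. The smallest adjusted p in any comparison was 0.966 (edgeR on intron and exon reads). Per base, its introns carried 333% of the reads of its exons, and there were 57.9 junction reads per 100 exon reads, so spliced RNA was present as well. Its 3 introns are shown because together they gave more reads than the gene's exons. The sequences are from RefSeq TAIR10.1, plus strand, 5′ to 3′, with the intron in capitals and 8 exon bases in lower case on each side.
AT1G73885 intron 1: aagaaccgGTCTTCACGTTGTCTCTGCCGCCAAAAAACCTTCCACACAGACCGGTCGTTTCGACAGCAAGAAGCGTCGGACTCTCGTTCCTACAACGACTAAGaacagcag
AT1G73885 intron 2: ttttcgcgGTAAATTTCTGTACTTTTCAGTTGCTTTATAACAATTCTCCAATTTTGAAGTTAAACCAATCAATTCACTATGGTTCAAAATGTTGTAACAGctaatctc
AT1G73885 intron 3: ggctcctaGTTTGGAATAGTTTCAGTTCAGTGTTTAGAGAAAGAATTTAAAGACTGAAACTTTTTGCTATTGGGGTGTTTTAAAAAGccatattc
Intron 1 (27786988 to 27787082) is 95 bases long with a GC content of 52.6%, intron 2 (27787325 to 27787416) 92 bases with 28.3% and intron 3 (27787583 to 27787661) 79 bases with 30.4%. In genes whose deposited intron length matches RefSeq, the median GC content was 33.3% over 216 introns of members and 33.2% over 26743 of other genes. Intron 1 is thus far richer in G and C than is usual among these introns. All 3 begin with GT and end with AG.

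LpxC3, a UDP-3-O-acyl N-acetylglycosamine deacetylase family gene, had 53.8 to 61.1% in sapx tapx pgr5, 56.0 to 65.7% in pgr5, 59.8 to 63.0% in sapx tapx and 58.6 to 64.7% in wild type. None of its intron reads was unique, however. The deposited region spans 7878 bases with 12 exons, whereas RefSeq gives LpxC3 a span of 1873 bases and 3 other RefSeq loci overlap the deposited region. Its paralog LpxC2, at 31.9%, was alike in both respects, with 7875 bases deposited, a RefSeq span of 2172 bases and no unique intron read. The shares of both genes are therefore uncertain.

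The members that follow in rank were named after their values were seen. BGLU5 reached 42.9%, AT4G15810 41.5%, AT1G10890 37.9%, AT5G19150 35.8%, UMAMIT47 33.9%, RIK 31.7% and AT1G20100 29.1%. BGLU5 is a beta glucosidase, AT1G10890 an arginine/glutamate-rich protein, UMAMIT47 a transporter of the EamA-like family and RIK a KH-domain protein that binds RNA. Per base, intron reads exceeded exon reads in BGLU5 (111%), AT4G15810 (292%) and AT1G20100 (105%). AT4G15810 had only 0.874 junction reads per 100 exon reads, against a median of 55.1 over the 142 members, so its exon reads hardly ever crossed a splice junction. For 6 of 142 members the intron read density reached that of the exons, against 5 of 5891 other genes. These densities use the same reads as the ranking and are a description.

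The RefSeq annotation of the members differed from that of the other genes. The ranking did not use RefSeq. Reads in bases that are exon only in RefSeq were counted as intron reads, however, so the ranking favours genes with such bases. A transcript in which an intron is kept whole was annotated in RefSeq for 75 of 141 matched members (53.2%), against 28.4% of 5881 other genes. More than 1 transcript was annotated for 75.9% of members and 51.4% of other genes. Among genes with more than 1 transcript, 70.1% of 107 members and 55.3% of 3021 other genes had a kept intron. In 63 members (44.7%) the RefSeq exons covered at least 100 bases more than the exons of the deposited tables, against 16.2% of the other genes. In these genes RefSeq has exon where the deposited tables have none. AtRZ-1c, an RNA-binding protein with a share of 26.3%, had 1923 such bases, RIK 1204, UMAMIT47 1110 and AT1G10890 868. A share of this kind rests on which annotation release assigned the reads. The groups are compared by counts, with no test.

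**Figure D2:**
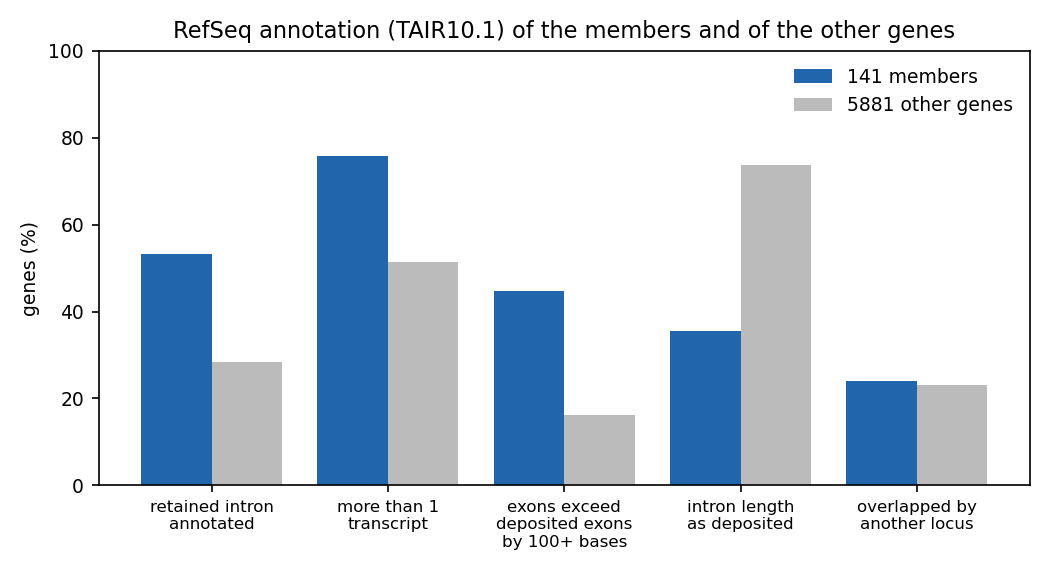
Share of genes (%) with each feature in RefSeq TAIR10.1, for the 141 matched members with exons and for 5881 other genes with 100 or more reads in all libraries. Kept introns (53.2 against 28.4%) and exons beyond those deposited (44.7 against 16.2%) were more frequent in members, and overlap with another locus was similar (24.1 and 23.1%).

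Members had more intron and less exon than other genes. A share of reads from introns tends to rise with intron length and fall with exon length, so the ranking itself favours such genes. The lengths are a description. Their median total intron length was 1128 bases and exon length 1437 bases, against 839 and 1672 bases in the other genes. Among genes whose deposited introns match RefSeq, 18 of 50 members (36.0%) and 19.1% of 3885 other genes had an intron of at least 500 bases. No member with exons had a single exon, against 415 of 5891 other genes, which follows from the rule. Junction reads had a median of 55.1 per 100 exon reads in members and 48.8 in other genes. Splice sites were read only in genes whose deposited intron length matches RefSeq, which holds for 35.5% of matched members and 73.7% of other genes. There, introns began with GT in 96.8% of 216 member introns and 98.8% of 26743 other introns. The motifs ATATCCTT and GTATCCTT, which mark U12-type introns, opened 1 of 216 member introns and 0.206% of the others on the transcribed strand.

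Among the members whose deposited intron length matches RefSeq, 10 have 1 RefSeq intron. The splice sites of 4 of them, picked after their values were seen, are shown, since their intron reads could be counted only in that intron. Exon bases are in lower case and intron bases in capitals, from RefSeq TAIR10.1 on the transcribed strand.
GSTU18 donor: acgatcagGTTCATAGATTG
GSTU18 acceptor: ATTTGATATGAATGGAAGtggtttat
GRP7 donor: attccaagGTCTGTTACACG
GRP7 acceptor: GTATTATTTGGATAACAGatcattaa
AT3G22210 donor: tcagagagGTTCACTGTTAT
AT3G22210 acceptor: TCAAGTGTGTGTGTGCAGaaatcgtt
AT1G72600 donor: ttaccagaTATAGATCTAAG
AT1G72600 acceptor: ATGTAACAATTTTGACAGgttttgaa
GSTU18 (intron on chromosome 1, 3396101 to 3396485, minus strand) is a glutathione transferase with a share of 13.4%. GRP7 (chromosome 2, 9265894 to 9266202, minus strand) is a glycine-rich RNA-binding protein of the clock that is known to bind its own transcript and alter its splicing, and its 309-base intron gave a share of 10.6%. AT3G22210 (chromosome 3, 7839249 to 7839335, minus strand) is uncharacterized, had 12.9%, and its exon reads are described further on. The annotated intron of AT1G72600 (chromosome 1, 27338892 to 27339186, plus strand) begins with TA and not with GT, and only 0.49% of its intron reads were unique. That gene's share of 9.45% is uncertain.

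The library kit does not mark the strand, so reads from a gene on the opposite strand inside an intron could be counted for either gene. Another listed gene overlapped 26 of 142 members (18.3%) and 16.7% of the other genes. In 11 members less than 50% of the intron reads were unique, against 66 of the other genes (7.75 against 1.12%). Besides LpxC2, LpxC3 and AT1G72600 these included AT5G19150 at 2.69% unique, AT5G10540 at 0.792%, AtkdsA1 at 6.85%, AT4G16400 at 3.86% and PTAC18 at 0%. In PTAC18, a protein of the plastid transcription complex, the locus AT2G32179 on the other strand overlaps the intron. Intron reads of these members cannot be assigned to 1 gene.

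Of all 6041 genes with enough reads 2.48% are members, and gene lists for splicing, clock and stress genes can be read against that share. Of 14 SR splicing factors with enough reads only SCL30A was a member (7.14% of the list), at 9.40%, and the median share of the 14 was 2.65%. Among 16 other splicing and RNA-binding factors 12.5% were members, namely GRP7 at 10.6% and AFC2, a LAMMER-type kinase of splicing factors listed as FC2, at 12%, and the median was 1.85%. Of 10 clock genes RVE8, a MYB-like activator of evening genes, was a member (10% of the list) at 11.4%, with a median of 3.24% over the list. The medians of these 3 lists lay above the 0.782% of all 6041 genes, while those of 11 heat shock genes (0.0854%) and 5 leaf mesophyll markers (0.0924%) lay below it, with no member in either. Among 3 JAZ repressors, which hold back jasmonate responses, none was a member, but their median of 4.79% was above those of the splicing and clock lists. None of 3 rapid stress genes was a member, and their median was 0%.

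Both genes with a known heterochromatic intron that had enough reads were members. RPP7 (AT1G58602), a nucleotide-binding leucine-rich repeat gene for downy mildew resistance whose long intron holds a silenced transposon, had a share of 20.9% and 14379 intron bases. AT3G05410, a PsbP family gene, had 11.3%. RPP7 had 20.5, 23.4 and 22.2% in sapx tapx pgr5, 18.5, 22.8 and 24.9% in pgr5, 23.9, 18.0 and 21.8% in sapx tapx, and 19.1, 19.3 and 16.4% in wild type. The sapx tapx pgr5 libraries all lay above those of wild type, but the smallest adjusted p of RPP7 in any comparison was 0.882 (edgeR). RPP4 at 16.5% and SNC1 at 15.9%, neighbouring resistance genes on chromosome 4, were also members, named after their values were seen, so 3 of 31 genes with disease resistance in their RefSeq product name were among the 150.

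Some protein families recurred among the members, by a search of RefSeq product names made after the members were known. RNA-binding, splicing or ribonucleoprotein words occurred in 12 of 141 members (8.51%) and in 2.44% of 6022 genes. They include AT1G66260, AT3G01210 and AT1G60200 with RNA recognition motifs, AT2G25970 with a KH domain and AT4G36980, a CLK4-associating serine/arginine-rich protein. Beta glucosidases made up 4 of the 141 members out of 11 such genes in all: BGLU5, BGLU6 at 14.5%, BGLU8 at 13.3% and BGLU47 at 12.1%. BGLU5 and BGLU6 are neighbours on chromosome 1. Transporters of the EamA-like family gave 3 members of 8, UMAMIT47, UMAMIT13 at 26.8% and UMAMIT38 at 21.6%, and ferric reduction oxidases gave FRO6 and FRO7 of 3. Relatives share sequence, so they are not independent observations.

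The share of intron reads over the members with exons was lowest in sapx tapx pgr5 and highest in pgr5. Pooled over the 142 genes it was 12.7, 14.9 and 14.6% in sapx tapx pgr5, 16.5, 16.4 and 17.3% in pgr5, 14.5, 15.8 and 17.1% in sapx tapx, and 13.8, 16.7 and 16.1% in wild type. The means were 14.1 ± 1.19, 16.7 ± 0.522, 15.8 ± 1.33 and 15.5 ± 1.55% (SD, n = 3 each, same order). The pgr5 libraries all lay above those of sapx tapx pgr5, while both genotypes overlapped sapx tapx and wild type. The other genes with enough reads were likewise lowest in sapx tapx pgr5 and highest in pgr5, with 0.619 ± 0.104% in sapx tapx pgr5, 0.772 ± 0.0696% in pgr5, 0.700 ± 0.128% in sapx tapx and 0.733 ± 0.126% in wild type (SD, n = 3 each). In every genotype the library numbered 1 had the lowest share over these other genes. The part of this in the genotype means was not tested.

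**Figure D3:**
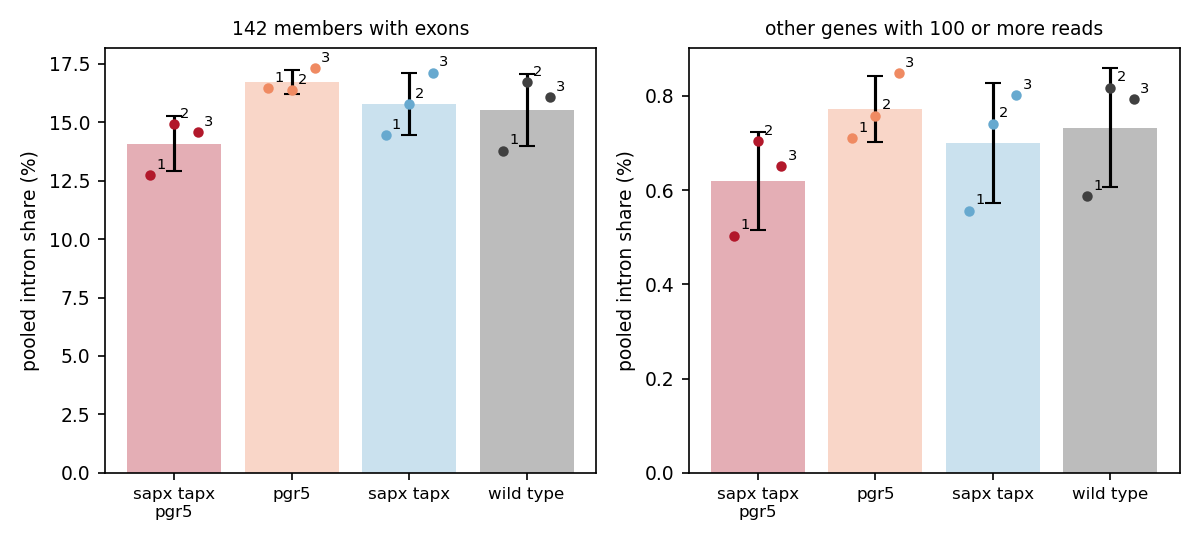
Pooled intron share (%) of the 142 members with exons (left) and of the other genes with 100 or more reads (right), with bars for the genotype mean, error bars for the SD of 3 libraries and a numbered point for each library. Both panels start at 0 and show sapx tapx pgr5 lowest and pgr5 highest, with 14.1 and 16.7% in members and 0.619 and 0.772% in other genes.

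Gene by gene, no member passed the test of intron share in any comparison. The test was an edgeR quasi-likelihood fit of intron and exon reads in 4121 genes with at least 20 intron reads, with a term for each library, and it gives the log2 change of the ratio of intron to exon reads. Between sapx tapx pgr5 and wild type 0 of 142 members were called, with 0% of all genes called, and 6 members (4.23%) against 6.92% of all genes had an unadjusted p under 0.05. For pgr5 against wild type the count was 0 of 142, with 0.0485% of all genes called and 11 members (7.75%) against 5.51% at an unadjusted p under 0.05. For sapx tapx against wild type it was 0, with 0.0243% of all genes called and 12 members (8.45%) against 5.41%. With sapx tapx pgr5 set against sapx tapx it was 0, with 0% of all genes and 18 members (12.7%) against 8.27%. Against pgr5 it was 0, with 0% of all genes and 14 members (9.86%) against 6.21%. For the interaction, which is the change with pgr5 in the sapx tapx background minus that in wild type, it was 0, with 0% of all genes and 14 members (9.86%) against 6.07%. For any difference among the 4 genotypes it was 0, with 0.0728% of all genes and 17 members (12%) against 7.35%.

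Limma on the log2 ratio called 2 members lower in sapx tapx pgr5 against sapx tapx (MSRB6 and AT4G24350) and 3 for any difference (with AT1G78070 added), and none elsewhere. These genes were named after their values were seen. Single libraries moved the edgeR counts. Leaving out wild type replicate 2 gave 4 members for the interaction, 4 for any difference, 1 for sapx tapx pgr5 against sapx tapx and 1 for sapx tapx against wild type. Leaving out sapx tapx pgr5 replicate 3 gave 2 for the interaction, 2 for any difference, 2 against sapx tapx and 1 against pgr5. Leaving out sapx tapx replicate 1 gave 2 for the interaction, 1 for any difference and 1 for sapx tapx pgr5 against sapx tapx, and leaving out pgr5 replicate 2 gave 2 for the interaction. When the number 2 libraries of sapx tapx pgr5, sapx tapx and wild type were all left out, a choice made after seeing the data, the interaction had 4 calls and any difference 11. This leaves sapx tapx pgr5 (1820 and 1403 CPM) and sapx tapx (1929 and 1422 CPM) with their libraries of high summed rapid stress genes and wild type with its low ones (257 and 264 CPM), so genotype and this stress level cannot be told apart in those counts.

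The medians over the members followed those over all genes. The largest shift was between sapx tapx pgr5 and pgr5, where the median log2 change was -0.31 over 142 members and -0.29 over all 4121 genes, with 113 of 142 members below 0. It was -0.15 and -0.18 for sapx tapx pgr5 against wild type, 0.14 and 0.10 for pgr5 against wild type, and 0.01 and -0.05 for sapx tapx against wild type. Between sapx tapx pgr5 and sapx tapx it was -0.14 and -0.12, and for the interaction -0.25 and -0.23. These comparisons share libraries.

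Some members separated the 3 libraries of 1 genotype from the 3 of another. In sapx tapx pgr5 against pgr5 the shares did not overlap for 40 of 142 members (28.2%, against 14.3% of all tested genes), 2 of them higher (2.38% of all) and 38 lower (12% of all). Between sapx tapx pgr5 and wild type 5 members were higher (3.76% of all tested genes) and 14 lower (7.91% of all), together 13.4% against 11.7%. In pgr5 against wild type 17 were higher (8.42% of all) and 3 lower (3.98% of all), together 14.1% against 12.4%. Members thus separated pgr5 from sapx tapx pgr5 most often, a count that the ranking may have shaped. In sapx tapx against wild type 8 were higher (4.85% of all) and 7 lower (5.95% of all), together 10.6% against 10.8%. Set against sapx tapx, sapx tapx pgr5 had 3 higher (5.05% of all) and 18 lower (8.52% of all), together 14.8% against 13.6%. Members have more intron reads than other tested genes, with medians of 424 and 60 over the 12 libraries. Among tested genes with at least 100 intron reads 20.2% did not overlap in sapx tapx pgr5 against pgr5, 14.2% in sapx tapx pgr5 against wild type, 14.3% in pgr5 against wild type, 10.8% in sapx tapx against wild type and 16.9% in sapx tapx pgr5 against sapx tapx.

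The precision of a single gene sets what could be seen. The median standard error of a member's log2 change was 0.35 between 2 genotypes. Within a genotype the SD of a member's share was 2.41 percentage points at the median, and reads alone would give 2.06 points by counting error. Over all tested genes these values were 0.523 and 0.604 points. The median of SDs from 3 libraries tends to lie below the true SD, so the 2 measures do not compare directly. The genotype means of a member spanned 4.34 points at the median, and those of all tested genes 0.815 points. Spread between libraries alone also parts means of 3 libraries, and its part in this span was not tested. The mean was lowest in sapx tapx pgr5 for 67 of 142 members (47.2%) and for 38.3% of all tested genes, and highest in pgr5 for 71 members (50%) and 36.3% of all tested genes. The ranking may have shaped these counts, since a gene can enter the set through the genotype where it is high.

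The 5 members with the widest range over the libraries were AT4G34150, LOG1, AT1G63830, AT1G10890 and NUDT7. NUDT7 is a nudix hydrolase that restrains immune signalling, with 1.87, 1.69 and 8.97% in sapx tapx pgr5, 14.9, 11.2 and 22.5% in pgr5, 8.70, 10.4 and 19.0% in sapx tapx, and 0.725, 6.95 and 4.07% in wild type. The pgr5 libraries all lay above those of sapx tapx pgr5 and of wild type, and those of sapx tapx above wild type. All its wild type libraries lay below 8.74%, the lowest mean share of a member, so it entered the set through other genotypes. The interaction had a log2 change of -3.83 ± 0.79 (SE), with an adjusted p of 0.0536 (edgeR), which does not pass. Its intron reads numbered 6 to 33 in sapx tapx pgr5, 29 to 32 in pgr5, 16 to 61 in sapx tapx and 1 to 18 in wild type.

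AT1G63830, a PLAC8 family gene, had 3.26, 2.63 and 11.1% in sapx tapx pgr5, 18.1, 16.8 and 19.0% in pgr5, 15.6, 29.0 and 27.4% in sapx tapx, and 2.86, 12.8 and 9.57% in wild type. Both pgr5 and sapx tapx lay wholly above sapx tapx pgr5 and wild type. The log2 change was -2.23 ± 0.45 for sapx tapx pgr5 against sapx tapx (edgeR adjusted p = 0.078) and -3.39 ± 0.65 for the interaction (edgeR adjusted p = 0.0536). These 2 genes had the smallest adjusted p of all members, and both were called for the interaction without wild type replicate 2, sapx tapx replicate 1, pgr5 replicate 2 or sapx tapx pgr5 replicate 3.

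LOG1, an enzyme that activates cytokinins, had 14.8, 17.6 and 21.2% in sapx tapx pgr5, 27.6, 23.1 and 28.4% in pgr5, 33.9, 24.3 and 38.6% in sapx tapx, and 11.4, 26.3 and 10.7% in wild type. Here sapx tapx pgr5 lay below pgr5 and sapx tapx, and wild type replicate 2 stood above the other wild type libraries. The interaction was -1.97 ± 0.52 (edgeR adjusted p = 0.293). Without wild type replicate 2 it was called for the interaction and for sapx tapx against wild type.

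AT4G34150, a calcium-dependent lipid-binding family gene, had 5.07, 15.9 and 15.3% in sapx tapx pgr5, 31.2, 17.9 and 38.9% in pgr5, 12, 33.7 and 28.5% in sapx tapx, and 5.33, 11.6 and 30.1% in wild type. Its exon level varied as widely within a genotype, at 171, 44.6 and 176 CPM in sapx tapx pgr5, 64.4, 123 and 63.4 CPM in pgr5, 201, 41.1 and 163 CPM in sapx tapx, and 23.7, 150 and 20.5 CPM in wild type. The libraries with high and low exon level in each genotype are those with high and low summed rapid stress genes, and the part of this in the share was not tested. AT1G10890 had 29.0, 38.6 and 39.1% in sapx tapx pgr5, 41.7, 45.4 and 44.7% in pgr5, 22.8, 35.3 and 35.2% in sapx tapx, and 38.1, 40.6 and 44.1% in wild type. Neither passed in any comparison.

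**Figure D4:**
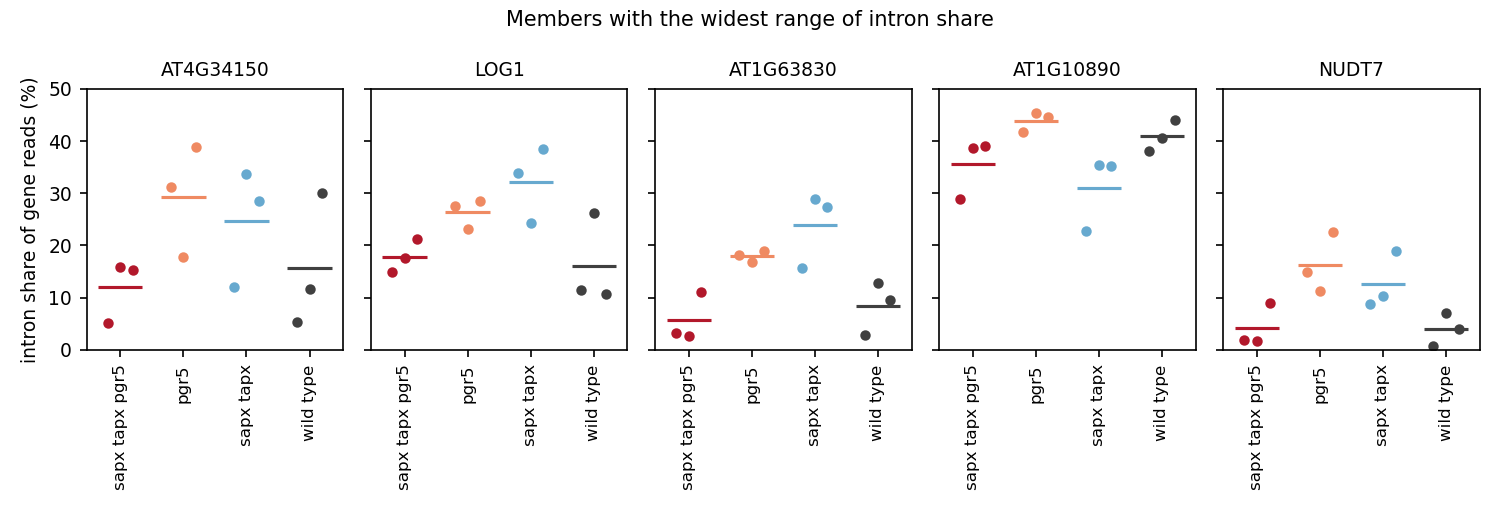
Intron share of gene reads (%) of the 5 members with the widest range, with a point for each library and a line at the mean of the 3 libraries of a genotype. AT1G63830 and NUDT7 lie higher in pgr5 and sapx tapx than in sapx tapx pgr5 and wild type on average, and the libraries of 1 genotype differ by up to 24.8 percentage points in AT4G34150.

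The members on the splicing and clock lists did not pass for intron share. GRP7 had 8.55, 8.62 and 9.79% in sapx tapx pgr5, 10.7, 13.5 and 12.2% in pgr5, 5.42, 9.82 and 12.4% in sapx tapx, and 11.2, 12 and 13.3% in wild type. Its sapx tapx pgr5 libraries lay below those of pgr5 and wild type, and its smallest adjusted p was 0.805 (edgeR). RVE8 had 5.63 to 12.2% in sapx tapx pgr5, 10.4 to 14.1% in pgr5, 9.64 to 14.5% in sapx tapx and 9.29 to 12.1% in wild type. SCL30A had 5.73 to 12.7%, 8.38 to 14.8%, 6.08 to 8.59% and 7.66 to 9.56% in the same order. AFC2 had 8.09 to 11.7%, 9.01 to 13.4%, 6.30 to 21.1% and 5.98 to 19.4%. AT3G05410 had 6.91 to 12.7%, 9.0 to 18.1%, 6.36 to 14.8% and 3.03 to 15.3%. The smallest adjusted p of these 4 genes in any comparison was 0.791, for SCL30A (edgeR).

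Some members passed the test of transcript level, measured by exon reads alone, in comparisons of a pgr5 genotype with one that lacks the pgr5 mutation. In sapx tapx pgr5 against wild type 16 of 142 members rose, which is 11.3% of members against 6.21% of all 16350 genes tested, and 1 fell, 0.704% of members against 4.09% of all. Together these are 12% of members, against 10.3% of all genes and 12.3% of the genes with at least 100 gene reads. In pgr5 against wild type 5 rose (3.52% of members, 2.44% of all) and 1 fell (0.704% of members, 1.46% of all), together 4.23%, against 3.9% of all genes and 5.39% of those with at least 100 reads. Set against sapx tapx, sapx tapx pgr5 had 6 that rose (4.23% of members, 4.78% of all) and 4 that fell (2.82% of members, 3.13% of all), together 7.04%, against 7.91% and 8.97%. With both directions summed, the members' shares of calls are near those of the genes with at least 100 reads. By direction, members in sapx tapx pgr5 against wild type had a larger share of rises and a smaller share of falls than all genes, a difference that was not tested. No member was called in sapx tapx against wild type (0.0367% of all genes, 0.0183% in each direction, and 0.0166% of genes with at least 100 reads), where 8 members had an unadjusted p under 0.05 in edgeR and DESeq2 called 0. None was called in sapx tapx pgr5 against pgr5 (1.54% of all), where 19 had an unadjusted p under 0.05 and DESeq2 called 3. None was called in the interaction (0.141% of all), where 9 had an unadjusted p under 0.05 and DESeq2 called 0.

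FRO6 and FRO7, neighbouring genes on chromosome 5 for ferric chelate reductases, rose in both genotypes with pgr5. In TMM-normalised CPM of exon reads, FRO6 had 176, 99.9 and 218 CPM in sapx tapx pgr5, 116, 185 and 165 CPM in pgr5, 66.3, 50.8 and 75.3 CPM in sapx tapx, and 50.2, 89.0 and 65 CPM in wild type. All libraries of both pgr5 genotypes lay above those of the others. The log2 change was 1.27 ± 0.29 (SE) in sapx tapx pgr5 against wild type (edgeR adjusted p = 0.0168). It was 1.19 ± 0.29 for pgr5 over wild type (edgeR adjusted p = 0.0427) and 1.36 ± 0.29 in sapx tapx pgr5 against sapx tapx (adjusted p = 0.0137).

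FRO7 had 147, 121 and 173 CPM in sapx tapx pgr5, 114, 149 and 150 CPM in pgr5, 78.8, 54.4 and 76.7 CPM in sapx tapx, and 52.2, 84.3 and 60.2 CPM in wild type. The same 2 genotypes were high, without overlap. It changed by 1.16 ± 0.20 on the log2 scale in sapx tapx pgr5 against wild type (edgeR adjusted p = 0.0043). It changed by 1.07 ± 0.20 for pgr5 over wild type (edgeR adjusted p = 0.0149) and by 1.07 ± 0.20 in sapx tapx pgr5 against sapx tapx (adjusted p = 0.00745). The pair are close paralogs, and reads that both share could have been split between them.

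AT5G53420, a CCT motif gene, was the 1 member that fell in all 3 comparisons. It had 26.3, 29.1 and 25.0 CPM in sapx tapx pgr5, 24.0, 21.8 and 22.5 CPM in pgr5, 49.5, 50 and 46.6 CPM in sapx tapx, and 48.0, 44.0 and 39.8 CPM in wild type. Its replicates were close, and the 2 pairs of genotypes did not overlap. It fell by 0.71 ± 0.10 on the log2 scale in sapx tapx pgr5 against wild type (edgeR adjusted p = 0.000982). It fell by 0.95 ± 0.10 in pgr5 relative to wild type (edgeR adjusted p = 0.000481) and by 0.86 ± 0.10 in sapx tapx pgr5 against sapx tapx (adjusted p = 0.000278). Its intron share overlapped among the genotypes, at 12.4 to 18.5% in sapx tapx pgr5, 11 to 16.1% in pgr5, 13.3 to 17.9% in sapx tapx and 13.5 to 18.3% in wild type.

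AT3G53830, of the RCC1 family, had 50, 65.6 and 73.7 CPM in sapx tapx pgr5, 30.4, 36.6 and 43.3 CPM in pgr5, 21.4, 26.8 and 33.7 CPM in sapx tapx, and 27.7, 26.8 and 29.8 CPM in wild type. It was highest in sapx tapx pgr5, without overlap with any other genotype. The log2 change was 1.17 ± 0.19 against wild type (edgeR adjusted p = 0.00241) and 1.21 ± 0.19 against sapx tapx (adjusted p = 0.00213), and the interaction did not pass. FBA7, a cytosolic fructose-bisphosphate aldolase, rose by 0.85 ± 0.18 in sapx tapx pgr5 against wild type (edgeR adjusted p = 0.0114) and by 0.74 ± 0.18 in pgr5 relative to wild type (edgeR adjusted p = 0.0405). Its levels were 41.6 to 59.3 CPM in sapx tapx pgr5, 39.9 to 54.6 CPM in pgr5, 27.0 to 33.9 CPM in sapx tapx and 25.5 to 35 CPM in wild type.

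Of the other members called in sapx tapx pgr5 against wild type, AT3G22210 rose by 0.83 on the log2 scale, AT1G76110 (an HMG box protein) by 0.82, AT3G24460 (a Serinc-domain protein) by 0.78, AT5G58800 (a quinone reductase) by 0.60 and AT2G35760 by 0.52. AT3G24460 and AT3G22210 also rose in pgr5 against wild type, by 1.12 and 0.70. In sapx tapx pgr5 against sapx tapx AT1G76110 rose by 0.82, FBA7 by 0.77 and AT3G61420 by 0.47, while BGLU47 fell by 0.56, GAUT7 (a galacturonosyltransferase) by 0.44 and AT3G56160 by 0.38.

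**Figure D5:**
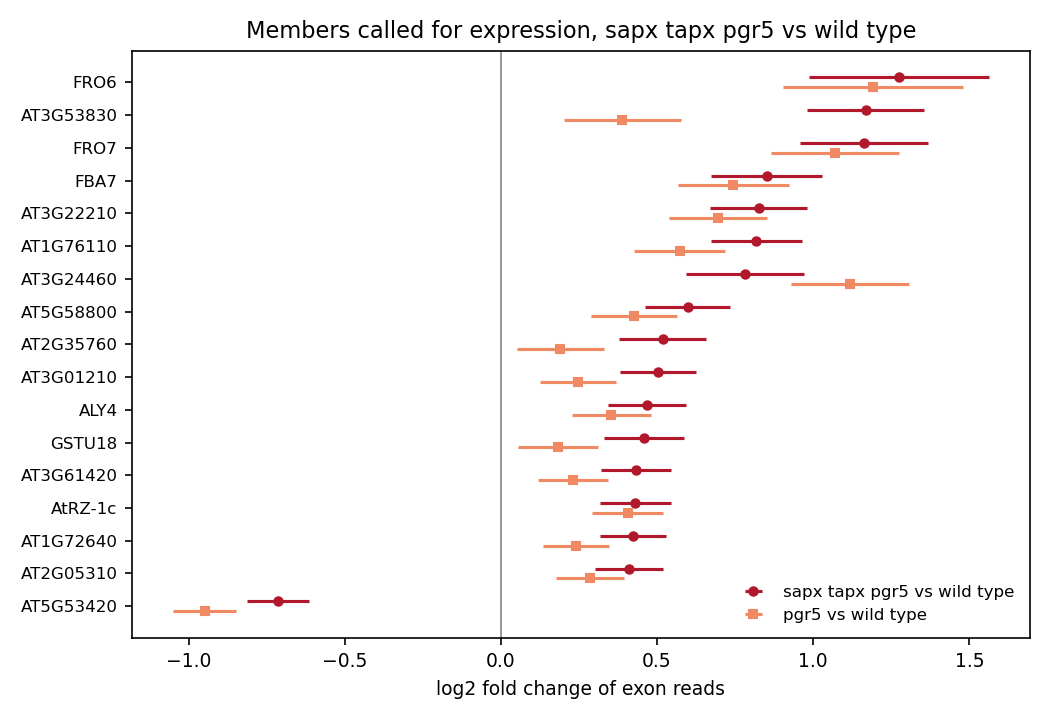
Log2 fold change of exon reads of the 17 members called in sapx tapx pgr5 against wild type (circles), with the same genes in pgr5 against wild type (squares), and error bars for the SE. Of the 17, 16 lie above 0, up to 1.27 in FRO6, and AT5G53420 lies below at -0.71. Both comparisons share the wild type libraries.

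These counts moved with single libraries. For sapx tapx pgr5 against wild type, 17 calls became 6 when wild type replicate 3 was left out, 8 for sapx tapx pgr5 replicate 1 and 10 for its replicate 2 or 3. For pgr5 against wild type, 6 calls became 3 when wild type replicate 1 was left out and 2 for wild type replicate 3 or for either of pgr5 replicates 2 and 3. For sapx tapx pgr5 against sapx tapx, 10 calls became 5 for sapx tapx replicate 1 or 2, 6 for sapx tapx pgr5 replicate 3 and 16 for wild type replicate 2. For sapx tapx pgr5 against pgr5, 0 calls became 1 for sapx tapx pgr5 replicate 2 and 2 for wild type replicate 2. Leaving out the number 2 libraries of sapx tapx pgr5, sapx tapx and wild type together gave 32, 17 and 16 calls in the first 3 of these comparisons and 13 in the last, with 10 in sapx tapx against wild type and 3 in the interaction. In these counts too, the rapid stress genes were high in all remaining sapx tapx pgr5 and sapx tapx libraries and low in those of wild type, and cannot be told apart from genotype. AT5G53420, AT1G76110, AT3G53830, AT3G22210 and FRO7 stayed called in sapx tapx pgr5 against wild type without any 1 of the 12 libraries. AT5G53420 and AT3G24460 did so in pgr5 against wild type, and AT5G53420, AT3G53830, AT1G76110 and FRO7 in sapx tapx pgr5 against sapx tapx. Phloem and trichome markers separated sapx tapx pgr5 and pgr5 from sapx tapx and wild type, while guard cell markers overlapped between pgr5 and sapx tapx. The 2 phloem markers summed to 483 to 563 CPM in sapx tapx pgr5 and 518 to 580 CPM in pgr5, against 346 to 390 CPM in sapx tapx and 349 to 408 CPM in wild type. The 3 guard cell markers summed to 50.4 to 55.5, 60.2 to 63.2, 60.2 to 70.8 and 74.3 to 78.7 CPM, and the 3 trichome markers to 0.857 to 1.46, 0.905 to 1.87, 4.22 to 6.04 and 5.79 to 8.18 CPM, in the same order. In sapx tapx pgr5 and in pgr5, 1 trichome marker was at 0 in at least 1 library. Their part in the members' changes was not tested.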

How the data were processed

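Libraries were made with the TruSeq RNA v2 kit, which does not mark strand, per the labels' protocols. The authors deposited 1 table per library with raw counts of gene, exon, exon-exon and intron reads per gene, total and unique, per the file headers. The deposited RPKM values, made by the authors per kb of exon and scaled to total gene reads, were used only to describe levels. Reads were placed on TAIR10, per the submitters' processing notes. Which aligner, counter and annotation release made the tables is not given in the sources used here. Coordinates were read with RefSeq TAIR10.1, whose chromosome lengths cover the deposited positions.

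Intron share is total intron reads over total gene reads. Its test was edgeR 4.0.16 quasi-likelihood (R 4.3.3) on intron and exon reads, 2 columns per library with the same library size and 1 term per library, in genes with at least 20 intron reads over the 12 libraries. Members without an exon could not be fitted. Exon reads were tested with edgeR, TMM and filterByExpr, and their CPM are TMM-normalised; the members without an exon were tested on gene reads. All fits used the 12 libraries, and p-values were Benjamini-Hochberg adjusted over all genes tested, with calls at 0.05. The tests were checked on simulated data. Alternatives were limma 3.58.1, DESeq2 1.42.0, other scalings, filters and libraries left out. Counting error grows as reads fall, so shares of members with few intron reads are least precise. Members and lists were chosen with earlier results of these data known. Named genes were the 10 highest, the 5 on each side of the limit, up to 10 called per comparison by size, the 5 with the widest range and members on the lists; others are marked where named.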

Additional observations from a re-analysis of the deposited data

How the results depend on the processing

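The members depended on the read minimum: 60 of 150 stayed with at least 200 gene reads and 71 with at least 50, against 148 with the pooled share and 142 with unique reads. The pooled share of all 150, 27.4% in sapx tapx pgr5, 32.2% in pgr5, 29.3% in sapx tapx and 29.6% in wild type, was 30.7, 36.2, 31.9 and 33.0% over members that overlap no listed gene and 14.1, 16.7, 15.8 and 15.5% over members with exons. Leaving out 1 library gave 26.2 to 28.1%, 31.3 to 33.3%, 28.4 to 29.8% and 28.9 to 30.1%.

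For intron share, separate scaling of intron and exon reads called 1 member (AT1G63830) for sapx tapx pgr5 against sapx tapx and 1 for any difference. With no minimum of intron reads there was 1 call for sapx tapx pgr5 against sapx tapx, 1 against pgr5, 2 for the interaction and 2 for any difference. Limma called 2 for sapx tapx pgr5 against sapx tapx and 3 for any difference. Without the number 2 libraries of sapx tapx pgr5, sapx tapx and wild type, an alternative added after seeing the data that leaves rapid stress genes high in both sapx tapx genotypes and low in wild type, the counts were 5 for sapx tapx pgr5, 5 for pgr5 and 8 for sapx tapx, each against wild type, 2 for sapx tapx pgr5 against sapx tapx, 2 against pgr5, 4 for the interaction and 11 for any difference. Leaving out 1 library gave 0 to 1 for sapx tapx against wild type, 0 to 2 for sapx tapx pgr5 against sapx tapx, 0 to 1 against pgr5, 0 to 4 for the interaction, 0 to 4 for any difference and 0 elsewhere.

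For exon reads, DESeq2 called 3 members for sapx tapx pgr5 against pgr5. Without the number 2 libraries of 3 genotypes the counts were 32, 17 and 10 for sapx tapx pgr5, pgr5 and sapx tapx against wild type, 16 and 13 for sapx tapx pgr5 against sapx tapx and pgr5, and 3 for the interaction. Leaving out 1 library gave 6 to 21, 2 to 9 and 0 for the comparisons with wild type, 5 to 16 and 0 to 2 for those of sapx tapx pgr5 with sapx tapx and pgr5, and 0 for the interaction. Of the called members named, 70 of 312 values lost significance when 1 library was left out and 8 of 156 under other settings, and none reversed.

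The gene-wise check gave no pairing by replicate number: same-numbered libraries correlated at -0.271 to 0.177 for intron share, over 0.1 in 2 of 18 pairs, and at -0.663 to 0.613 for exon reads, over 0.1 in 7 of 18. Of 12 libraries, 5 and 7 correlated best with their own number. These correlations cannot show a shift of a whole library, and library 1 had the lowest intron share over the other genes in each genotype. A replicate block called 2 members for the interaction in intron share, 26 for exon reads in sapx tapx pgr5 against wild type and 1 in sapx tapx pgr5 against pgr5. The cause of these changes was not tested.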
